A study of Arabidopsis thaliana with 8 samples.

Results

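KIC and its relatives are small proteins of Arabidopsis thaliana that bind calcium through EF-hands, the helix-loop-helix fold that holds the ion. The set covers 8 listed loci: KIC (AT2G46600), its close relatives AT4G27280 and PBP1 (AT5G54490), and the calmodulin-like genes TCH2 (AT5G37770), TCH3 (AT2G41100), CML37 (AT5G42380), CML38 (AT1G76650) and CML39 (AT1G76640). The platform annotation gave a probeset matched to a single gene for 5 of them, out of 13286 loci so matched on the array. These 5 were KIC, AT4G27280, CML38, CML37 and CML39, and each had 1 such probeset. PBP1, TCH2 and TCH3 were not analysed here. The set was drawn up with earlier results of these arrays known. KIC was singled out for its higher signal in Col-0 roots in phosphate-free medium, so its values in that comparison, in the average that holds it and in the interaction are given as a description with no test.

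Calcium sensors of this kind change shape when cytosolic calcium rises and then bind partner proteins, which passes a brief calcium signal on to enzymes, motors or transport proteins. KIC binds KCBP, a kinesin that itself binds calmodulin, and in the presence of calcium it lowers the binding of that motor to microtubules. AT4G27280, also called CMI1, has been described in roots as a sensor of auxin-induced calcium changes, and PBP1 binds the auxin-transport kinase PINOID. CML37, CML38 and CML39 form a group of calmodulin-like proteins known to be induced by wounding, touch or other stresses, and CML38 and CML39 are neighbouring loci on chromosome 1.

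Roots were measured on 8 Affymetrix ATH1 arrays, 2 in each of 4 groups. The groups were per1 in phosphate-free (Pi-free) medium, per1 in control medium, Col-0 in Pi-free medium and Col-0 in control medium. The mutant per1, in the background of the wild type Col-0, is known for failing to lengthen its root hairs under phosphate deficiency. All plants had 10 days on control agar and a further 10 h on fresh control or Pi-free medium. The labels call the 2 arrays of a group biological replicates and do not say whether they came from separate cultures, so p-values measure the spread between these arrays, which may be in part technical. The descriptions attached to the samples speak of iron media, at odds with the titles and the treatment protocol, and the groups follow the titles. The gene mutated in per1 was not analysed here, so no transcript checks the genotype labels.

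Values are linear probeset signals with no detection calls, and the number of arrays limits their precision. Array medians lay between 186 and 197.1, and arrays of the same group had a Spearman rho of 0.975 to 0.982 over the probesets. The highest signal among 27 control probesets for bacterial transcripts (dap, lys, phe, thr and trp), used here as a background level, was 26.1 to 43.4 per array. Of 18 root markers listed for this purpose 4 were measured, with a summed signal of 25217 to 26013 in per1 Pi-free, 27619 to 31098 in per1 control, 28403 to 28540 in Col-0 Pi-free and 28862 to 31201 in Col-0 control roots. Most of that sum is PYK10, a root glucosidase. Of 20 green shoot markers 2 were measured, and their summed signal was 283 to 324 in per1 Pi-free, 292 to 342 in per1 control, 468 to 554 in Col-0 Pi-free and 522 to 621 in Col-0 control roots. Their level was thus lower on every per1 array than on every Col-0 array.

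KIC had the higher signal in Pi-free medium in both genotypes, with the widest separation in Col-0. Its signal was 3520 and 4134 on the Col-0 Pi-free arrays, against 2009 and 1777 on the Col-0 control arrays. In per1 it was 3149 and 2954 on the Pi-free arrays, against 2292 and 2433 on the control arrays. No array of one group reached into another, and the order from high to low was Col-0 Pi-free, per1 Pi-free, per1 control and Col-0 control. The group means were 3052 ± 138 in per1 Pi-free, 2362 ± 99.1 in per1 control, 3827 ± 434 in Col-0 Pi-free and 1893 ± 164 in Col-0 control roots (SD, n = 2 each). Both per1 groups lay between the Col-0 groups.

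On the scale of log2(signal + 16), on which all differences below are given, KIC was higher by 1.01 ± 0.11 (SE) in Pi-free than in control Col-0 roots. This is the value it was picked for. Replicate numbers 1 and 2 gave 0.80 and 1.21. The numbers were not taken as pairs. The closeness or spread of such values, here and below, thus depends in part on the numbering and is no measure of agreement. Without any 1 of the 8 arrays the difference ran from 0.89 to 1.12. In per1 the difference was 0.37 ± 0.11, with 0.46 and 0.28 in replicate numbers 1 and 2. It did not pass the limma test over all probesets, with an unadjusted p of 0.0096 and an adjusted p of 1.0. The interaction, which is the per1 response minus the Col-0 response, was -0.64 ± 0.16, with -0.35 and -0.93 in replicate numbers 1 and 2. Averaged over the genotypes KIC was higher by 0.69 ± 0.08 in Pi-free medium.

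**Figure D1:**
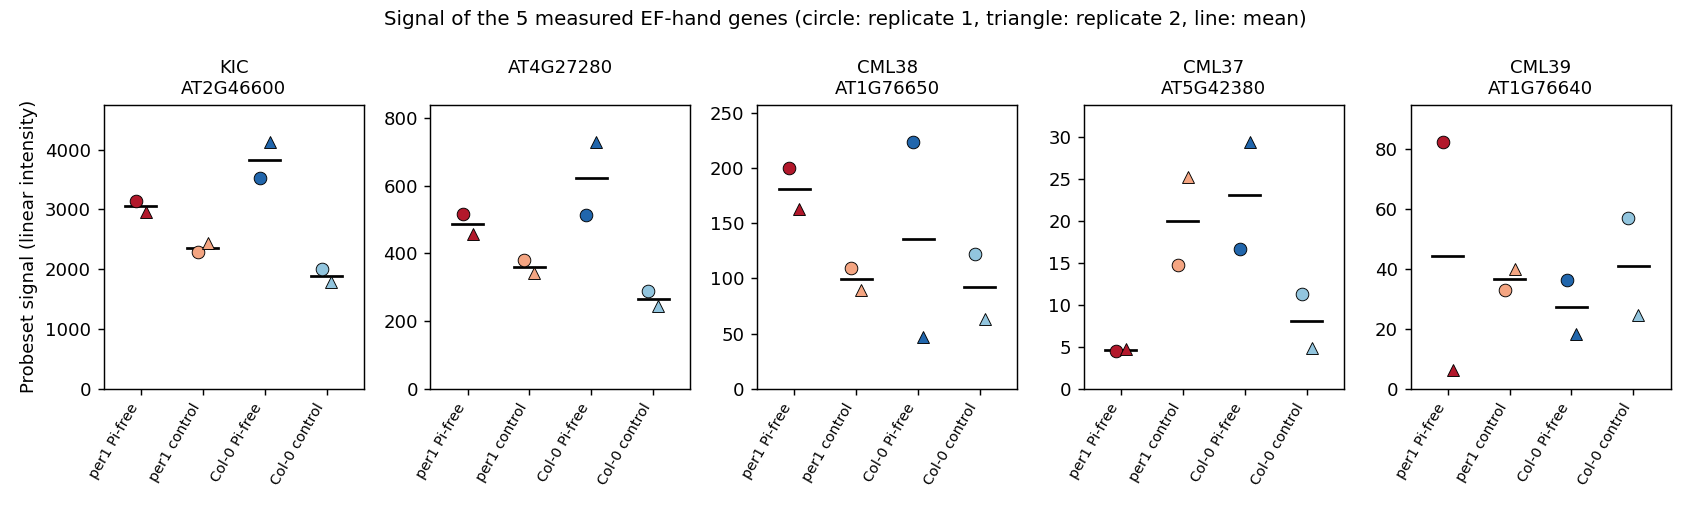
Linear probeset signal of each measured gene on the 8 arrays, with circles for replicate 1, triangles for replicate 2 and a line at the mean of each group; each panel has its own axis from 0. For KIC the 4 groups are separate, while for CML38 the Col-0 Pi-free arrays read 224 and 46.8.

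AT4G27280, the sensor linked to auxin and calcium, followed KIC across the groups. Its signal was 514 and 730 on the Col-0 Pi-free arrays, against 287 and 243 on the Col-0 control arrays. On the per1 arrays it was 515 and 458 in Pi-free medium, against 379 and 342 in control medium. The Pi-free groups of the genotypes overlapped, and both lay above both control groups. Group means were 486 ± 40.6 in per1 Pi-free, 360.45 ± 26.8 in per1 control, 622 ± 152 in Col-0 Pi-free and 265 ± 31.4 in Col-0 control roots (SD, n = 2 each).

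In Col-0, AT4G27280 was higher in Pi-free medium by 1.17 ± 0.18, with 0.81 and 1.53 in replicate numbers 1 and 2. It did not pass the limma test, with an adjusted p of 0.075. Over the alternative settings that adjusted p ran from 0.017 to 0.55: it passed with a pseudocount of 1 and with probesets of a mean signal over 100 only, and in 0 of the 8 fits without 1 array. In per1 the difference was 0.42 ± 0.18, or 0.43 and 0.41 in replicate numbers 1 and 2, with an adjusted p of 1.0 and an unadjusted p of 0.046. The interaction was -0.75 ± 0.26, with an adjusted p of 0.92. Averaged over the genotypes the difference was 0.79 ± 0.13, with an adjusted p of 0.073, or 0.015 to 0.45 over the alternatives. It passed there with a pseudocount of 1, with the signal filter and without the Col-0 Pi-free array of replicate 1.

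CML38, whose product is known as a stress-induced calmodulin-like protein, had unequal replicates in Col-0. Its signal was 224 and 46.8 on the Col-0 Pi-free arrays of replicates 1 and 2, against 122 and 63.3 on the Col-0 control arrays. In per1 it was 200.0 and 163 in Pi-free medium, against 110 and 89.1 in control medium. The per1 groups did not overlap and the Col-0 groups did. The Col-0 Pi-free array of replicate 2, which had the highest KIC and AT4G27280 signals of all 8, had the lowest CML38 signal.

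The CML38 difference was 0.23 ± 0.53 in Col-0, with 0.80 and -0.34 in replicate numbers 1 and 2 and an adjusted p from limma of 0.96. Without the Col-0 Pi-free array of replicate 2 it was 1.20, and without that of replicate 1 it was -0.74. It also fell below 0, at -0.17, without the Col-0 control array of replicate 2. In per1 the CML38 difference was 0.78 ± 0.53, with 0.78 and 0.77 in replicate numbers 1 and 2 and an adjusted p of 1.0. The pooled within-group SD of CML38 was 0.75 on the log2 scale, against 0.11 for KIC, 0.21 for AT4G27280 and a median of 0.21 over all probesets.

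CML37, known for its induction by wounding, lay under the background level on all 8 arrays. Its signal was 4.5 and 4.7 on the per1 Pi-free arrays, against 14.7 and 25.2 on the per1 control arrays. In Col-0 it was 16.6 and 29.4 in Pi-free medium, against 11.3 and 4.8 in control medium. The groups of each genotype did not overlap and their order was opposite, but signals under the background level have no fold. The differences on the log2 scale were -0.79 ± 0.33 in per1 and 0.69 ± 0.33 in Col-0, with limma adjusted p of 1.0 and 0.68, and the interaction of -1.48 ± 0.46 had an adjusted p of 0.92.

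CML39, described as a calmodulin-like protein that acts in seedling establishment, was above the background level on 4 of 8 arrays. Its signal was 82.3 and 6.1 on the per1 Pi-free arrays, against 32.8 and 40.0 on the per1 control arrays. In Col-0 it was 36.3 and 18.3 in Pi-free medium, against 56.9 and 24.6 in control medium. All groups overlapped within each genotype, and no order can be read at this spread. The differences were -0.17 ± 0.61 in per1 and -0.36 ± 0.61 in Col-0, with limma adjusted p of 1.0 and 0.93.

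Of the 4 measured genes other than KIC, 0 passed the limma test in the Col-0 Pi response and 0 in the averaged Pi response, where 0.0615% and 0.127% of all probesets passed. At an unadjusted p under 0.05 there was AT4G27280 in each, where 7.68% and 6.3% of all probesets reached that p. In the per1 Pi response 0 of 5 genes passed, where 0.0044% of all probesets passed. At an unadjusted p under 0.05 there were KIC, AT4G27280 and, in the other direction and under the background level, CML37, where 4.47% of all probesets reached that p. The Pi-free and control groups did not overlap for 4 of 5 genes in per1 and 3 of 5 in Col-0, against 33.7% and 35.2% of all probesets, counted in either direction. In per1 these were KIC, AT4G27280 and CML38, higher in Pi-free medium, and CML37, lower. In Col-0 they were KIC, which was picked on this comparison, AT4G27280 and CML37. Averaged over the genotypes, both Pi-free groups lay apart from both control groups for 2 of 5, KIC and AT4G27280, against 3.03% of probesets, a share that rests in part on KIC having been chosen. The median difference of the 5 genes was KIC's own 0.37 in per1 and, in Col-0, the 0.69 of CML37, which was under the background level, so nothing is read from either. Over all probesets the medians were 0.02 and -0.00074. In the averaged response CML38 stood at 0.50 ± 0.37, CML37 at -0.05 ± 0.23 and CML39 at -0.26 ± 0.43, with limma adjusted p of 0.89, 0.99 and 0.96.

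**Figure D2:**
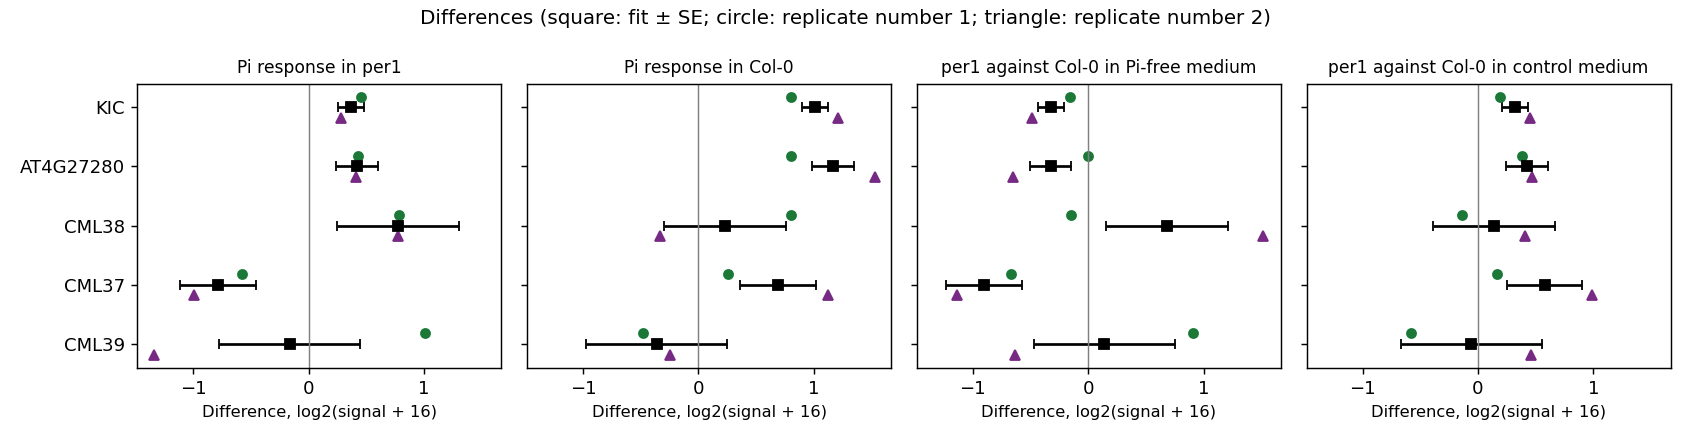
Differences on the log2(signal + 16) scale for the 5 genes in 4 comparisons. Squares with bars are the fit ± SE, circles replicate number 1 and triangles replicate number 2, which were not taken as pairs. KIC and AT4G27280 lie above 0 in both Pi responses, while the replicate numbers of CML39 lie on opposite sides of 0 in 3 of the 4 panels and CML37 stays under the background level on every array.

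The mutant was next set against the wild type within each medium. KIC stood at -0.32 ± 0.11 in per1 against Col-0 in Pi-free medium and at 0.32 ± 0.11 in control medium. Replicate numbers 1 and 2 gave -0.16 and -0.48 in Pi-free and 0.19 and 0.45 in control medium. The groups were separate in each medium, but neither difference passed the limma test, with adjusted p of 0.36 and 0.39. Averaged over the media KIC differed by -0.001 ± 0.081, with an adjusted p of 0.997. These comparisons share their Col-0 arrays with the comparison KIC was picked on.

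AT4G27280 had the same signs, at -0.33 ± 0.18 in Pi-free and 0.42 ± 0.18 in control medium, with limma adjusted p of 0.57 and 0.46. In Pi-free medium the groups overlapped, and replicate numbers 1 and 2 gave 0.002 and -0.66. CML38 stood at 0.68 ± 0.53 in Pi-free and 0.14 ± 0.53 in control medium, with adjusted p of 0.70 and 0.96, and its Pi-free value was -0.29 without the Col-0 Pi-free array of replicate 2. CML37, under the background level, stood at -0.90 ± 0.33 in Pi-free and 0.58 ± 0.33 in control medium, with adjusted p of 0.38 and 0.60. CML39 stood at 0.14 ± 0.61 in Pi-free and -0.06 ± 0.61 in control medium, with adjusted p of 0.97 and 0.99. Averaged over the media AT4G27280 stood at 0.05, CML38 at 0.41, CML37 at -0.16 and CML39 at 0.04, with adjusted p of 0.68 to 0.98.

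Over the set, 0 of 5 genes passed the limma test in Pi-free medium, 0 in control medium and 0 in the average over media, and 0 of the 4 genes other than KIC passed in the interaction. The shares over all probesets were 0.0308%, 0.0572%, 0.818% and 0.00879%. At an unadjusted p under 0.05 there were KIC and CML37 in Pi-free medium, KIC and AT4G27280 in control medium, 0 genes in the average, and AT4G27280 and CML37 in the interaction. That p was reached by 10.7%, 10.3%, 14.1% and 5.3% of all probesets. Groups were separate for 2 of 5 genes in Pi-free medium and 3 of 5 in control medium, against 40.3% and 41.4% of all probesets in either direction. CML37, under the background level, is 1 of these in each medium, and so is KIC. KIC was picked on the same Col-0 arrays, so its place in these counts and at that unadjusted p is only a description. The green shoot markers were lower on the per1 arrays. The root hair genes EXPA7, EXPA18 and AT4G26010 stood at -0.30, -0.71 and -0.52 in per1 against Col-0 in Pi-free medium. None of these passed the limma test, with adjusted p of 0.52, 0.087 and 0.24. In control medium they stood at 0.02, -0.23 and 0.02. PYK10 stood at -0.06 in Pi-free and -0.04 in control medium. In the average over media 1 of the 4 root markers, EXPA18, and 1 of the 2 green shoot markers passed the limma test as lower in per1. Without the intensity trend 0 of all probesets passed in that average. The part of these markers in the differences above was not tested.

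The genes whose pattern was most like that of KIC were sought among 5988 probesets matched to a single gene outside the set with a mean above the median of all probesets. Likeness was Pearson's r of log2(signal + 16) over the 8 arrays, which also share the group structure and the choice of KIC, so it is a description. The closest was AT2G41410, which encodes the calmodulin-like protein CML35, at r = 0.99 with a Spearman rho of 0.98. Next came AT2G32190, a cysteine-rich transmembrane-module gene, at r = 0.98, AT5G27920, an F-box gene, at r = 0.97, GAPC2, a cytosolic glyceraldehyde-3-phosphate dehydrogenase of glycolysis, at r = 0.96, and AT4G33940 at r = 0.95. A high r did not mean a difference of like size. The Col-0 Pi response was 1.38 for AT2G32190, 0.65 for AT5G27920, 0.24 for GAPC2 and 1.03 for AT4G33940. Within the set AT4G27280 had r = 0.98 and rho = 0.95, the third highest r of all probesets other than KIC itself. CML37 had r = 0.39, CML38 r = 0.19 and CML39 r = -0.16. Without the 2 arrays farthest from the KIC median, which were replicate 2 of Col-0 Pi-free and of Col-0 control, r was 0.98 for AT2G41410, 0.96 for AT4G27280, 0.85 for CML38 and -0.29 for CML37.

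AT2G41410 shows how close the match was. Its signal was 2326 and 2453 on the Col-0 Pi-free arrays, against 1647 and 1586 on the Col-0 control arrays. In per1 it was 2124 and 2138 in Pi-free medium, against 1810 and 1973 in control medium. The 4 groups were separate and in the same order as for KIC. Its difference was 0.17 ± 0.10 in per1 and 0.56 ± 0.10 in Col-0, with limma adjusted p of 1.0 and 0.11. Averaged over the genotypes it was 0.37 ± 0.07 with an adjusted p of 0.12, the smallest p of the calmodulin-like list below.

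**Figure D3:**
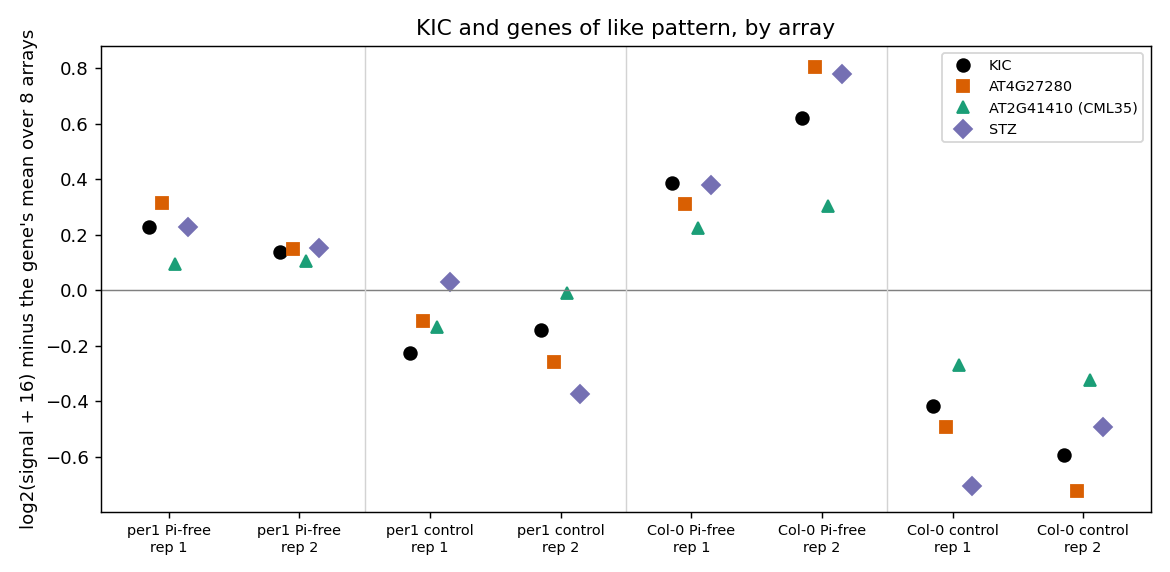
log2(signal + 16) of KIC, AT4G27280, AT2G41410 (CML35) and STZ on each of the 8 arrays, minus each gene's own mean over the arrays. For all 4 genes the Col-0 control arrays are the lowest and the array with the highest value is the Col-0 Pi-free array of replicate 2.

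Other genes of calcium signalling were taken from 8 lists of 194 loci, chosen by function, of which 39 had a probeset matched to a single gene. Of these, 32 were calmodulin-like or related EF-hand genes, and 3 were rapid touch and stress genes. Another 3 were calmodulin-binding transcription activators (CAMTA factors), and 1 was from the list of binding partners. Calcineurin B-like sensors, their kinases, calcium-dependent kinases, calmodulins themselves, and calcium pumps, exchangers and channels were not analysed here. None of the 39 passed the limma test in any of the 7 comparisons, with 4 at an unadjusted p under 0.05 in the per1 Pi response and 6 in that of Col-0, where 4.47% and 7.68% of all probesets reached that p. Their median difference was 0.09 in per1 and 0.16 in Col-0, with 22 and 26 of 39 above 0, against 54.1% and 49.9% of all probesets.

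Among the 32 calmodulin-like genes the median Pi response was 0.02 in per1 and 0.15 in Col-0, against 0.02 and -0.00074 over all probesets, and 16 and 20 of them were above 0, against 54.1% and 49.9% of all probesets. Of the 32, 20 were above the background level on all 8 arrays and 5 on none. In the average over media the gene of the list with the smallest p was CML42, a calmodulin-like gene known from leaf hairs and defence against herbivores, at -0.33 ± 0.09 in per1 against Col-0, with an adjusted p from limma of 0.15. Its signal was 376 and 349 in per1 Pi-free and 438 and 390.1 in per1 control roots. In Col-0 it was 479 and 451 in Pi-free and 536 and 498 in control roots. CML42 was thus lower on every per1 array than on every Col-0 array, as was the summed signal of the green shoot markers. The share of all probesets separated in this way is not given here, so nothing is read from it.

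STZ, a zinc-finger repressor also called ZAT10 that responds to salt, cold and touch, had r = 0.93 with KIC. This was below the r of each of the 5 genes named above as most like KIC. Its signal was 276 and 370 on the Col-0 Pi-free arrays, against 122 and 144 on the Col-0 control arrays, and in per1 it was 247 and 233 in Pi-free medium, against 213 and 157 in control medium. The Pi-free arrays lay above the control arrays in each genotype. Its difference was 0.36 ± 0.22 in per1 and 1.18 ± 0.22 in Col-0, with limma adjusted p of 1.0 and 0.16, and averaged over the genotypes it was 0.77 ± 0.15 with an adjusted p of 0.16. The other rapid genes, WRKY53 and AR781, stood at 0.002 and 0.29 in per1 and at 0.48 and 0.30 in Col-0. AR781 had the smallest p of this list in the average over media, at 0.17 ± 0.19 in per1 against Col-0, with an adjusted p of 0.76.

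Of the list of binding partners only WAG2, a kinase related to PINOID, was measured, at 0.18 in per1 and 0.23 in Col-0. Whether WAG2 binds any of these sensors was not examined here. Averaged over the genotypes the WAG2 difference was 0.21 ± 0.10, with a limma adjusted p of 0.82. Averaged over the media it was -0.15 ± 0.10, with an adjusted p of 0.56. The 3 CAMTA factors, which carry calmodulin binding into transcription, lay between -0.10 and 0.20 in per1 and between -0.12 and 0.05 in Col-0. Of these, AT4G16150 had the smallest p in the averaged Pi response, at 0.12 ± 0.14, and AT1G67310 in the averaged genotype difference, at -0.19 ± 0.12, with adjusted p of 0.94 and 0.50.

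**Figure D4:**
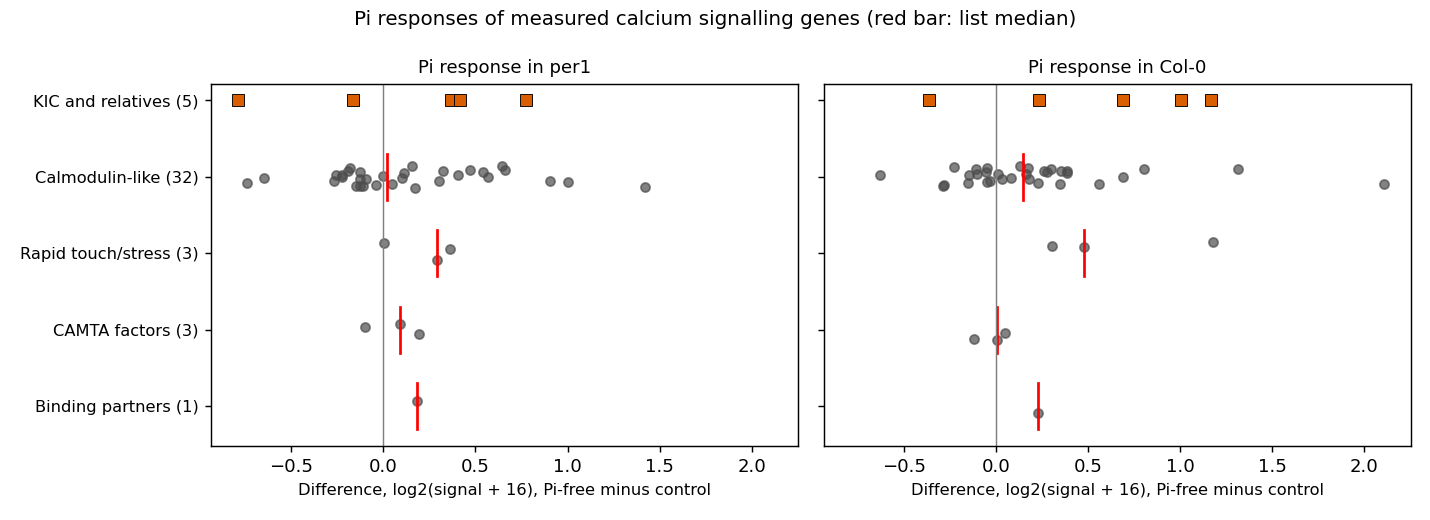
Pi responses on the log2(signal + 16) scale in per1 and in Col-0; squares are the 5 genes of the set, points the members of 4 other lists and red bars the list medians. The calmodulin-like genes spread around medians of 0.02 in per1 and 0.15 in Col-0, and the CAMTA factors lie near 0.

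RNA quality was read from control probesets for both ends of a transcript. For the newer pair of actin probesets the ratio of the 3' to the 5' signal was 4.07 to 5.49 on Pi-free and 4.98 to 6.38 on control arrays, and in each of the 4 pairs with the same genotype and number the Pi-free array had the lower ratio. For the older actin pair it was 37.8 to 49.8 on Pi-free and 23.9 to 52.1 on control arrays, higher in Pi-free medium in 3 of 4 pairs. For GAPDH the newer pair gave 1.22 to 1.61 and 1.31 to 1.58, higher in Pi-free medium in 3 of 4 pairs, and the older pair gave 2.35 to 3.72 and 2.23 to 3.19, higher in 2 of 4. Matched by number, the newer actin pair thus moved one way with medium, and the other pairs did not. In Col-0 its Pi-free and control ratios overlapped, at 4.07 and 5.49 against 4.98 and 6.38. The Col-0 Pi-free array of replicate 2, which had the highest KIC and AT4G27280 signals, had the highest ratio of all arrays for both GAPDH pairs, at 1.61 and 3.72. For the actin pairs it read 5.49 and 37.8, which were not the highest. By genotype the older GAPDH pair read 2.23 to 2.73 in per1 and 2.59 to 3.72 in Col-0, and the ranges of the other pairs also overlapped. The part of these ratios in the differences of KIC and AT4G27280 was not tested.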

How the data were processed

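The deposited values are signal intensities on a linear scale, 1 per probeset and array. How they were summarised and background-corrected is not given in the sources used here. Each array had a 2% trimmed mean of 500, which points to a common scaling by the authors. Labelling followed the Affymetrix manual, per the labels' protocols. Of 22810 probesets, 64 controls were left out and 22746 tested. Probesets with 1 gene in the platform annotation were matched through gene identifiers to 13286 loci of the TAIR10.1 annotation, and the probeset with the highest mean signal was kept per locus.

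Signals were transformed as log2(signal + 16), which understates the change of low signals, with no further normalization. limma 3.58.1 in R 4.3.3 fitted a mean for each of the 4 groups to the 8 arrays, leaving 4 residual degrees of freedom, with variances moderated along an intensity trend, so an SE can be smaller than 2 replicates imply. Benjamini-Hochberg adjustment ran over all probesets in each of 7 comparisons, and an adjusted p under 0.05 passed. The fit was tested on simulated data, with changes set in the Col-0 Pi response of probesets with a mean above the median. Of changes of 1 on the log2 scale 63.2% passed, and of changes of 2 96.6%, with 3.3% of calls false. Each run held 200 changed probesets, and a smaller share would pass where fewer probesets change. CML38, CML37 and CML39 had means below that median, so these shares do not describe them. A gene that did not pass may thus still differ. Counts of genes that passed leave out KIC wherever the Col-0 Pi response enters. The alternatives were pseudocounts of 1 and 64, no intensity trend, quantile normalization, probesets with a mean signal over 100 only, the replicate number as a block, and each array left out.

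Named were all measured genes of the set, the 5 genes with the highest r to KIC, and, from each list, any gene that passed and the gene with the smallest p in each averaged comparison; WRKY53 and AR781 complete their list. The members and lists were chosen with earlier results of these data known.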

Additional observations from a re-analysis of the deposited data

Results flagged for a closer look

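KIC differed between the genotypes in opposite directions in the 2 media. All Pi-free arrays of per1 lay below those of Col-0, at -0.32, and all control arrays of per1 lay above those of Col-0, at 0.32. Neither difference passed the limma test, with adjusted p of 0.36 in Pi-free and 0.39 in control medium. Both use the Col-0 arrays that KIC was picked on, so the opposite signs are only a description. The interaction was -0.64 on the log2 scale, and it was not tested, since KIC was picked on its response in Col-0. CML37 also had opposite directions, with Pi responses of -0.79 in per1 and 0.69 in Col-0, and genotype differences of -0.90 in Pi-free and 0.58 in control medium. Its interaction was -1.48, with a limma adjusted p of 0.92 and 4.5 to 29.4 as the range of its signal, under the background level on every array.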

How the results depend on the processing

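Of 32 results, 27 kept their direction and, where tested, their call with a pseudocount of 1, 31 with 64, 32 without the intensity trend, 31 after quantile normalization, 32 with the replicate block and 19 of 23 with probesets of a mean signal over 100 only. KIC carries no call in the Col-0, averaged and interaction values. In both the Col-0 and the averaged Pi response the count of the other genes that passed was 1, AT4G27280, with a pseudocount of 1 or the signal filter. Without 1 array it was 0 in the Col-0 and 0 to 1 in the averaged response, and KIC's difference ran from 0.89 to 1.12 in Col-0 and from -0.76 to -0.53 in the interaction. AT4G27280 passed in the averaged response without the Col-0 Pi-free array of replicate 1, at 0.91 with an adjusted p of 0.043. CML39 changed sign in the per1 Pi response with a pseudocount of 64, at 0.013, in control medium after quantile normalization, at 0.025, and in Pi-free medium with a pseudocount of 1, at -0.14. Without 1 array CML39 ran from -0.78 to 0.061 in the Col-0 and from -1.24 to 0.91 in the per1 Pi response, and per1 against Col-0 from -0.48 to 0.36 in control and from -0.94 to 1.21 in Pi-free medium. CML38 ran from -0.74 to 1.20 in the Col-0 Pi response, and per1 against Col-0 from -0.26 to 0.53 in control and from -0.29 to 1.65 in Pi-free medium. The cause was not tested.

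Over all probesets the Col-0 Pi response had 14 calls, with 1 to 40 over the 6 other settings and 3 to 4 without 1 array. The averaged genotype difference had 186 calls, with 0 to 488 and 12 to 232. The averaged Pi response had 29, with 2 to 68 and 2 to 27, the per1 Pi response 1, with 0 to 6 and 0 to 2, and the interaction 2, with 0 to 2 and 0 to 2. Per1 against Col-0 had 7 in Pi-free medium, with 0 to 76 and 0, and 13 in control medium, with 0 to 74 and 1 to 14. Deviations of same-numbered arrays correlated between groups at 0.0021 to 0.077 over all probesets and at 0.062 to 0.276 over those with a mean above the median, over 0.1 in 5 of 6 pairs of groups, and the numbers were not taken as pairs. With the replicate block the Col-0 Pi response had 31 calls, that of per1 4 and their average 49, per1 against Col-0 had 48 in Pi-free medium, 42 in control medium and 357 averaged, KIC's difference was 1.01 and AT4G27280 had an adjusted p of 0.059. CML37 and CML39 are limited by signals near or under the background level. Other probesets of a locus could not be tried, since each gene had 1.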

Other observations

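Among the other calmodulin-like genes, AT3G47480 (CML47) and AT5G39670 (CML46) are named here after their values were seen. CML47 had signals of 85.5 and 122 on the Col-0 Pi-free arrays, against 0.7 and 29.4 on the Col-0 control arrays, and of 25.4 and 46.3 on the per1 Pi-free arrays, against 2.9 and 3.0 on the per1 control arrays. The Pi-free arrays were the higher ones in each genotype, and CML47 was above the background level on 4 of 8 arrays. Of its control arrays 3 of 4 were under that level, so no difference is given, and it did not pass the limma test in any comparison. CML46 had signals of 106 and 65.1 on the Col-0 Pi-free arrays, against 20.3 and 28.2 on the Col-0 control arrays, and of 87.5 and 73.2 on the per1 Pi-free arrays, against 44.3 and 45.2 on the per1 control arrays. CML46 was above the background level on 7 of 8 arrays. Its Col-0 control signals of 20.3 and 28.2 stood against background levels of 42.0 and 26.1 on those arrays. Its difference was 0.66 ± 0.31 in per1 and 1.31 ± 0.31 in Col-0, with limma adjusted p of 1.0 and 0.325, and the Col-0 value rests on those control signals near or under the background level.

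CML23, a close relative of TCH2, was also picked after its values were seen. Its signal was 240.1 and 203 on the Col-0 Pi-free arrays, against 164 and 104 on the Col-0 control arrays, and 186 and 154 on the per1 Pi-free arrays, against 197 and 146 on the per1 control arrays. Its groups were separate in Col-0 and overlapped in per1. The difference was -0.003 ± 0.25 in per1 and 0.69 ± 0.25 in Col-0, and the interaction of -0.70 ± 0.36 did not pass the limma test, with an adjusted p of 0.92.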
